A study of Mus musculus with 12 samples.

Results

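Molecular chaperones and their co-chaperones were followed in RNA from mouse primary hepatocytes, as the 82 genes of the deposited table whose symbols begin with Hsp or Dnaj, or are Tcp1, Cct2 to Cct8 (Cct6a for the zeta subunit) or Bag1 to Bag6. Hspa1a, Hspa1b, Hspa5, Dnajb9 and Hspg2 were left out by the same rule, which used names and no measured value. These are 82 of 16728 genes listed. The set was proposed as cytosolic chaperones, and 57 of the 82 encode proteins of the cytosol or nucleus, but 13 encode proteins of the endoplasmic reticulum and 10 encode mitochondrial proteins, so the set is called here the chaperone genes. Hspb11, a subunit of the intraflagellar transport machinery, and Dnajc19-ps, a pseudogene, share the name pattern and were given no role.

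The study compared 4 groups of 3 libraries each. Fxr-/- cells (KO) treated with FAC (KO FAC, libraries 4 to 6) stood beside Fxr-/- cells treated with AC (KO AC, 1 to 3), wild-type cells treated with FAC (WT FAC, 4 to 6) and wild-type cells treated with AC (WT AC, 1 to 3). Both agents were used at 100 µM for 24 h, and the labels give them only as abbreviations, while the series title speaks of iron overload. Nr1h4 encodes Fxr, the bile acid receptor of the nuclear receptor family. Below, single libraries are also given by genotype and number, with 1 to 3 treated with AC and 4 to 6 with FAC in each genotype. All cells were labelled C57BL/6 and were kept in DMEM with serum. The age of the mice is not stated, and neither is whether 3 libraries of 1 group are from different mice or wells. A p-value here therefore covers only the spread between these libraries, which may be technical.

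Chaperones bind unfolded or partly folded proteins and keep them from aggregating. HSP70 proteins bind short exposed stretches in a cycle driven by ATP, in which J-domain proteins deliver substrates and stimulate ATP hydrolysis, and nucleotide exchange factors such as the BAG and HSP110 proteins release them. HSP90 acts later, on kinases and steroid hormone receptors among others, small HSPs hold unfolded proteins without ATP, and the TRiC/CCT ring encloses newly made actin and tubulin. Heat shock factor 1 induces many of these genes when unfolded proteins accumulate in the cytosol, and a separate pathway, the unfolded protein response, induces those of the endoplasmic reticulum. The liver makes large amounts of secreted protein and depends on both sets.

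Libraries held 16464494 to 18335700 estimated reads each. Values per library are given as CPM, read counts scaled to a common library size with TMM factors. A gene was called when its adjusted p from edgeR's quasi-likelihood test lay under 0.05 among the 12275 genes with enough reads. Nr1h4 was read at 3.54 to 4.89 CPM in KO FAC, 6.97 to 9.35 CPM in KO AC, 6.95 to 7.69 CPM in WT FAC and 13.0 to 15.6 CPM in WT AC libraries. Reads of a transcript from which a part is deleted can remain, so these counts do not test the deletion. Genotype separated the libraries on the first principal component of all genes, with 59.2% of the variance. On the third, with 7.42%, the KO libraries of each treatment spread further than those of WT, with −22.7, 3.26 and 27.7 for KO FAC 4, 5 and 6 and 13.5, −14.6 and −9.63 for KO AC 1, 2 and 3, and values without single libraries are given where they matter. The 8 hepatocyte markers were read in every library, with a summed level of 30391 to 30826 CPM in KO FAC, 23160.5 to 24843 CPM in KO AC, 30696 to 32505 CPM in WT FAC and 22122 to 23404 CPM in WT AC libraries. Most of each sum was Alb, with 21826 to 22180 CPM in KO FAC and 27202 to 28839 CPM in WT FAC libraries. Like sums therefore do not show like levels of the single markers, whose calls between genotypes are given below.

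Of the 82 genes, 71 had enough reads to be tested. The 11 others were Hspa12a, Hspa12b, Hspb2, Hspb7, Hspb9, Dnajb3, Dnajb7, Dnajb13, Dnajc5g, Dnajc6 and Dnajc19-ps, with 1 to 44 reads each summed over all 12 libraries. Together the chaperone genes took 1.43 to 1.52% of the reads in the 6 KO libraries, against 1.69 to 1.79% in the 6 WT libraries. These ranges did not overlap. The size of the gap depended on the scale, since read shares use no TMM factors. Summed CPM lay closer, at 14962.5 to 16087 in KO against 16298 to 16872 in WT libraries. Summed TPM were 9170 to 10820 in KO against 11449 to 13015 in WT libraries. In the deposited FPKM, which are levels per length, 18 genes stood at a mean of at least 100 FPKM over the 12 libraries and 12 under 1 FPKM. Hspa8, the constitutive HSP70 of the cytosol, stood highest at 1672 FPKM, and Hsp90ab1, the constitutive HSP90, followed at 1059.7 FPKM. Hsp90aa1, the inducible HSP90, Hspb1, a small HSP that binds actin filaments, and Hspa9, the HSP70 of the mitochondrial matrix, came next at 399, 369 and 355 FPKM. Hspa8 and Hsp90ab1 held 20.5% and 15.7% of all reads of the chaperone genes. Processed copies of Hspa8, Hspe1, Hspd1, Hsp90ab1 and Tcp1 exist in the mouse genome, how reads were shared among copies is not stated, and neither is whether counting used the strand, so the levels of these genes and of any that overlap another gene are uncertain to that extent.

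Between genotypes, chaperone genes went both ways, also within several classes. Under both treatments, the inducible HSP90 gene Hsp90aa1, Dnaja1, the small HSP Hspb1, most subunits of the TRiC/CCT ring and the mitochondrial chaperonin were lower in KO cells, while Hsp90b1, the HSP90 of the endoplasmic reticulum, the small HSPs Hspb6 and Hspb8, Bag3 and Dnajb2 were higher. Under FAC, 37 of the 71 tested genes (52.1%) were called between KO and WT cells, beside 49.5% of all genes tested. Of these, 14 were higher in KO (19.7%, beside 24.6% of all genes) and 23 lower (32.4%, beside 24.9%). Under AC, 40 (56.3%) were called, beside 42.9% of all genes, with 14 higher (19.7%, beside 21.7%) and 26 lower (36.6%, beside 21.2%). The total under FAC was thus near the background, and the share of lower genes stood above it under both treatments. The median log2 fold change of the 71 genes was −0.056 under FAC and −0.060 under AC, beside −0.011 and −0.0033 for all genes. Changes were small: the median size was 0.27 under FAC and 0.29 under AC on the log2 scale, beside 0.33 and 0.28 for all genes, and 2 called genes, Hspb6 and Hsp90b1 under FAC, reached a 2-fold change.

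A total of 31 genes were called under both treatments, 11 higher and 20 lower in KO cells, and 0 in opposite directions. The same count over all genes was not made, with 49.5% of them called under FAC and 42.9% under AC. The agreement is therefore not read as particular to the chaperone genes. The 2 comparisons use different libraries. The split leaned further to lower genes on the authors' length-scaled values, where the median of all genes moved as well, by −0.17 under FAC and −0.11 under AC on log2(TPM + 1). There limma called 5 higher and 39 lower under FAC and 9 higher and 32 lower under AC, and on log2(FPKM + 1) it called 7 higher and 35 lower under FAC and 9 higher and 27 lower under AC. With each library centred on its median gene (centred TPM), a setting chosen after seeing the data, the values gave 14 higher and 27 lower under FAC and 12 higher and 27 lower under AC. Over all genes, log2(TPM + 1) called 1942 higher and 4947 lower under FAC and 1823 and 3838 under AC. On log2(FPKM + 1) the calls were 2296 and 4281 under FAC and 2064 and 3385 under AC. Centred TPM gave 3135 and 2943 under FAC and 2437 and 2697 under AC.

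Markers of other cell types also moved with genotype. The summed level of 7 listed stellate cell and fibroblast markers was 0.392 to 0.757 CPM in KO FAC and 0.688 to 1.22 CPM in KO AC, against 5.31 to 6.27 CPM in WT FAC and 6.62 to 8.07 CPM in WT AC libraries. Des and Rgs5 were each at 0 in 4 libraries. For 6 cholangiocyte markers the sum was 149 to 165 CPM in KO FAC and 92.4 to 104 CPM in KO AC, against 343 to 387 CPM in WT FAC and 385 to 403 CPM in WT AC. Most of it was Spp1, while Cftr was at 0 in 9 libraries and Krt7 in 5. The 7 listed Kupffer cell and macrophage markers summed to 728 to 864 CPM in KO FAC and 555 to 688 CPM in KO AC, against 652 to 704 CPM in WT FAC and 348 to 425 CPM in WT AC libraries. Nearly all of it was Cd68, called higher in KO cells under both treatments, while Adgre1 and Marco were called lower under both, and Clec4f and Timd4 were each at 0 in 10 of 12 libraries. Sinusoidal endothelial markers summed to 19.2 to 24.3 CPM in KO FAC and 19.4 to 21.9 CPM in KO AC, against 24.2 to 32.0 CPM in WT FAC and 16.6 to 22.3 CPM in WT AC libraries, and Clec4g was at 0 in 11. Within that sum Stab2 was called higher and Cdh5, Kdr, Pecam1 and Tek lower in KO cells under both treatments, with Cdh5 at 1.05 to 1.24 CPM in KO FAC and 1.22 to 2.12 CPM in KO AC, against 8.13 to 9.75 CPM in WT FAC and 4.98 to 6.82 CPM in WT AC libraries. Among hepatocyte markers, 6 of 8 were called higher and Alb lower in KO cells under both treatments. The part of these shifts in the results was not tested, and in RNA from a whole culture fewer cells of a type and less RNA per cell cannot be told apart.

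**Figure D1:**
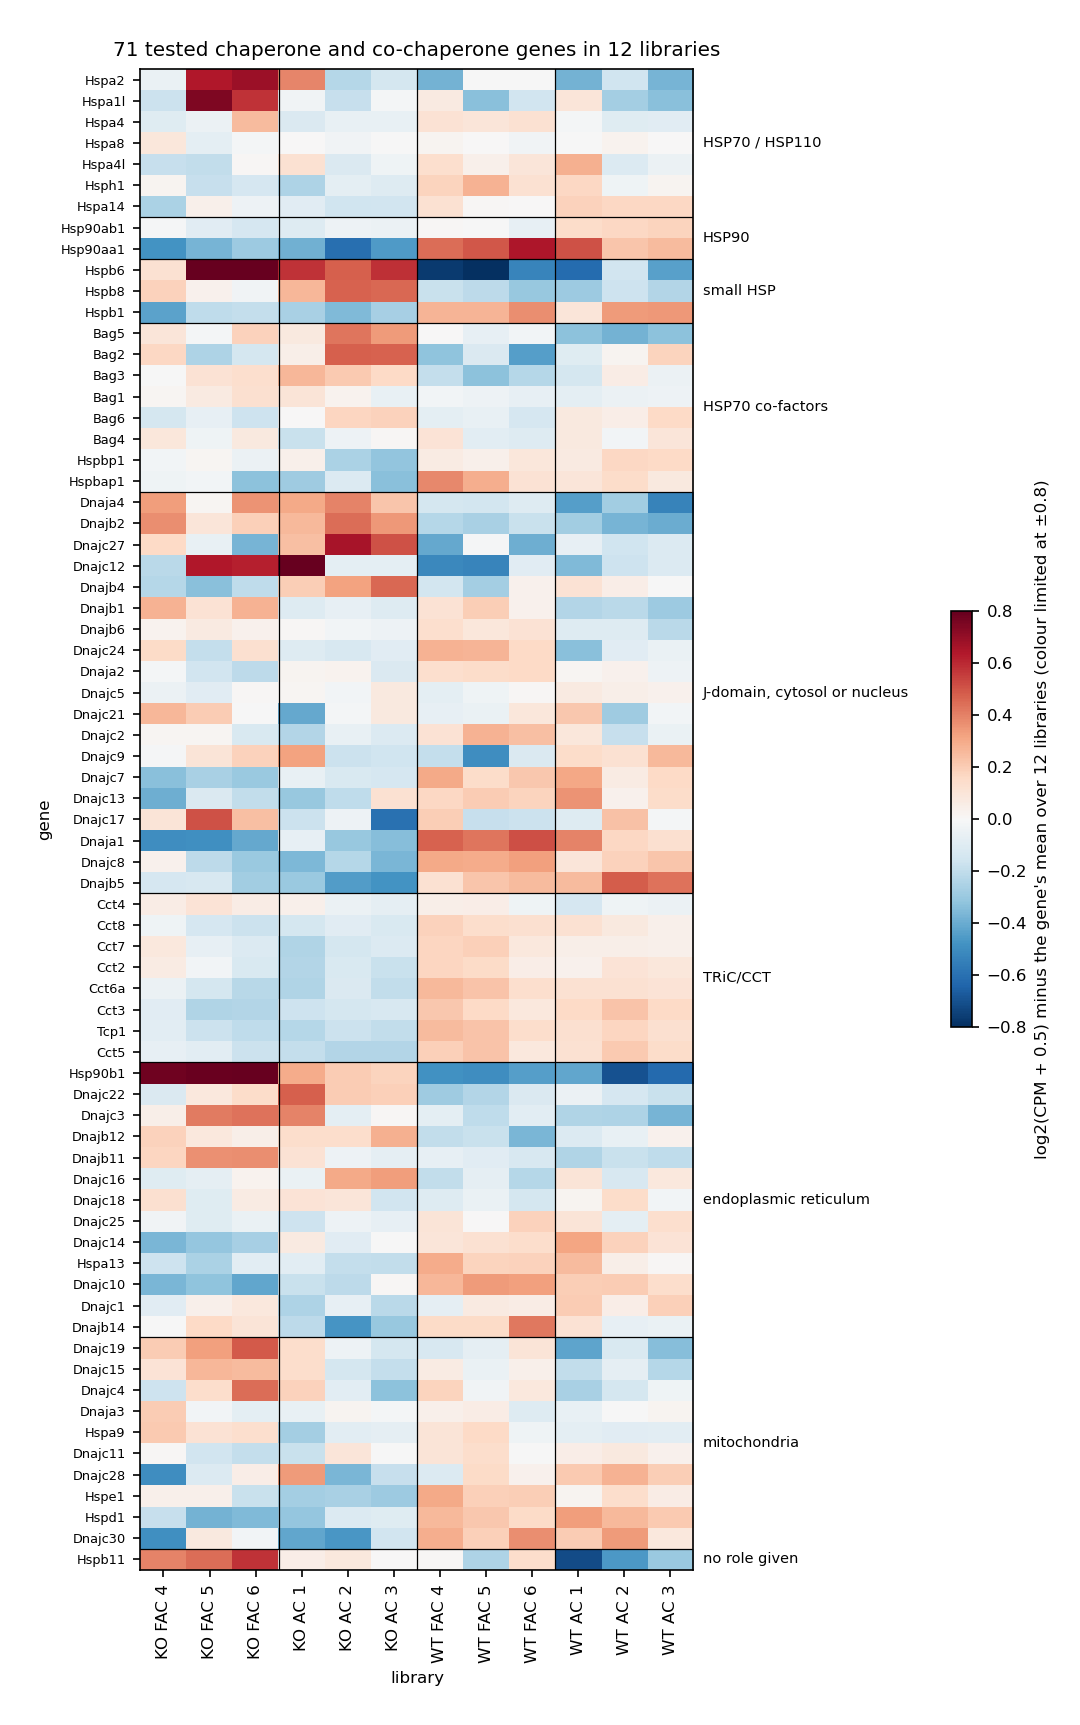
The 71 tested chaperone genes (rows, by role) in the 12 libraries (columns, 3 per group). Colour is log2(CPM + 0.5) minus the gene's own mean over the 12 libraries, red above and blue below, limited at ±0.8. Rows such as Hsp90aa1, Dnaja1, Hspd1 and the TRiC/CCT subunits other than Cct4 are mostly blue in KO and red in WT columns, and Hsp90b1, Hspb6, Dnaja4 and Dnajb2 the reverse.

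Both cytosolic HSP90 genes were lower in KO cells under AC, and Hsp90aa1 also under FAC. Under FAC, Hsp90aa1 had 731, 788 and 835 CPM in KO FAC libraries, against 1387, 1438 and 1599 CPM in WT FAC libraries. Under AC it had 782, 670.2 and 743 CPM in KO AC libraries, against 1449.7, 1191 and 1217 CPM in WT AC libraries. Each KO library lay below each WT library of the same treatment, at log2 fold changes of −0.91 ± 0.088 (SE; edgeR adjusted p = 2.22e-06) under FAC and −0.81 ± 0.088 (SE; edgeR adjusted p = 8.94e-06) under AC, calls that held in every alternative. FAC over AC gave 0.10 ± 0.087 (SE) in KO and 0.20 ± 0.087 (SE) in WT cells, neither of which passed the test (edgeR adjusted p = 0.41 in KO and 0.137 in WT). Hsp90ab1 had 2477, 2350.2 and 2279 CPM in KO FAC, 2324, 2423 and 2419.5 CPM in KO AC, 2511, 2487 and 2390.1 CPM in WT FAC and 2759, 2796 and 2825 CPM in WT AC libraries. The WT AC libraries were the highest and overlapped no other group. Hsp90ab1 was lower in KO cells under AC, at −0.23 ± 0.048 (SE; edgeR adjusted p = 0.00224), and had −0.056 ± 0.048 (SE; edgeR adjusted p = 0.351) under FAC, which did not pass. It fell with FAC in WT cells (−0.18 ± 0.048 SE, edgeR adjusted p = 0.0204) and had −0.012 ± 0.048 (SE) in KO cells, a difference of 0.17 ± 0.069 (SE) that did not pass the test (edgeR adjusted p = 0.195). For FAC in WT cells, the call did not hold for Hsp90ab1 (with centred TPM, and also without any one of WT 3, 5 and 6).

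**Figure D2:**
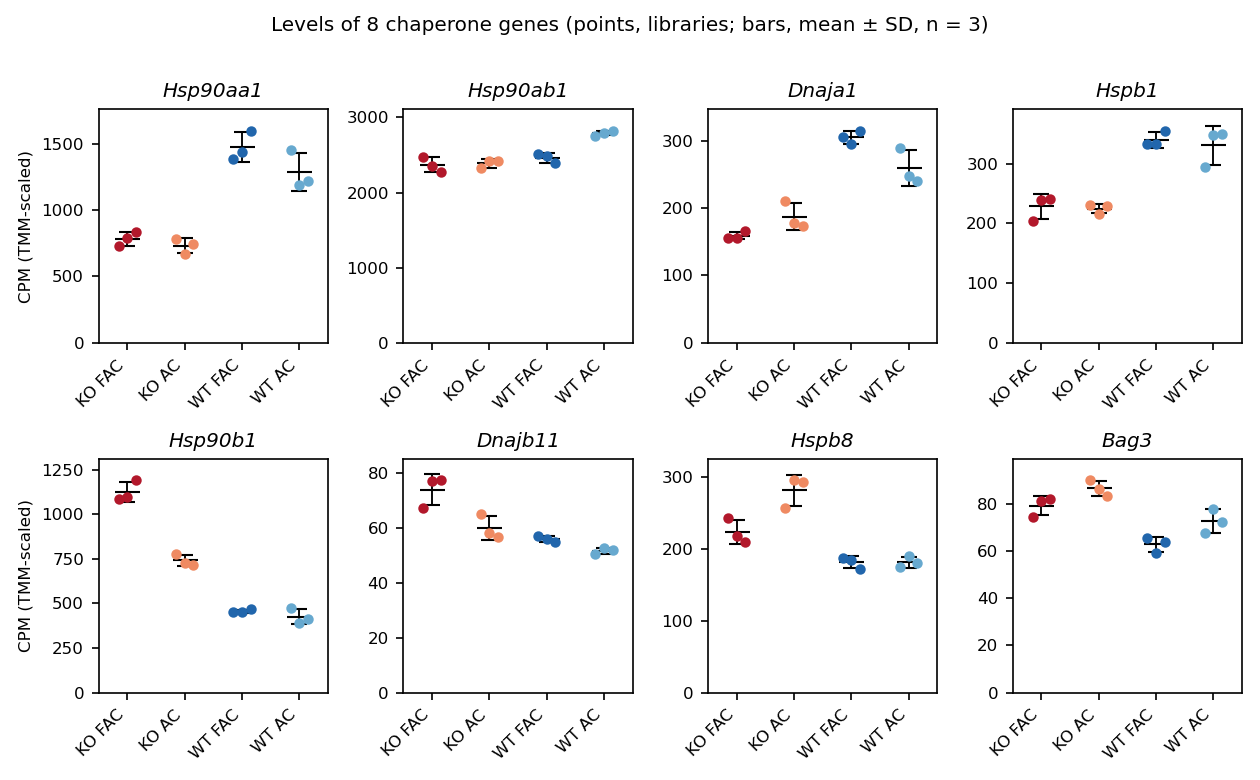
Levels of 8 chaperone genes in CPM (vertical axes start at 0) in the 4 groups. Points are libraries and bars the mean ± SD (n = 3). Hsp90aa1, Dnaja1 and Hspb1 lie lower in both KO groups than in the WT groups, Hsp90b1 lies higher in KO cells and higher again in KO FAC, and Hspb8 is highest in KO AC.

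Among the 7 tested HSP70 and HSP110 genes, edgeR called 0 for FAC in either genotype, beside 29.6% of all genes in KO and 17.2% in WT cells. An unadjusted p under 0.05 in edgeR was reached by 1 in KO and 1 in WT cells. DESeq2 also called 0, limma on log2(TPM + 1) called 2 lower in KO cells and on centred TPM 1 higher, edgeR without a filter called 1 of 9 higher in KO cells, and with only the WT groups in the fit it called 1 higher in WT cells. Hspa8 had 3498, 3113 and 3257 CPM in KO FAC, 3293, 3224 and 3275 CPM in KO AC, 3343, 3287 and 3217 CPM in WT FAC and 3284, 3355 and 3293 CPM in WT AC libraries. Its groups overlapped in all 4 comparisons between genotypes or treatments. Its log2 fold change was 0.0033 ± 0.05 (SE) between KO and WT under FAC and −0.02 ± 0.05 (SE) under AC (edgeR adjusted p = 0.962 and 0.767). Hspa4 and Hspa4l, of the HSP110 family, did not pass the test in any comparison. Hsph1, the stress-inducible HSP110, had 114, 98.9 and 102 CPM in KO FAC libraries, against 127, 136 and 122 CPM in WT FAC libraries. It was lower in KO cells at −0.29 ± 0.078 (SE; edgeR adjusted p = 0.00703). Under AC the value was −0.20 ± 0.078 (SE; edgeR adjusted p = 0.0572). Hspa14, which works at the ribosome together with Dnajc2, was lower in KO cells under AC (−0.31 ± 0.084 SE, edgeR adjusted p = 0.00864) and had −0.13 ± 0.084 (SE) under FAC. Hspa2, best known from the testis, was called higher in KO cells under FAC at 0.68 ± 0.26 (SE; edgeR adjusted p = 0.045), from 2.32, 4.05 and 4.19 CPM in KO FAC libraries, against 1.75, 2.41 and 2.41 CPM in WT FAC libraries. KO FAC 5 and KO FAC 6 were above the WT libraries, and KO FAC 4 lay within their range. Alternatives ended the call between genotypes under FAC of Hspa2 (with DESeq2, log2(FPKM + 1), log2(TPM + 1) or only the compared groups in the fit, and also without any one of KO 5 and 6 and WT 4, 5 and 6). Hspa1l, which lies beside Hspa1a and Hspa1b and is close to them in sequence, had 0.732, 1.83 and 1.57 CPM in KO FAC, 0.860, 0.720 and 0.873 CPM in KO AC, 0.960, 0.602 and 0.746 CPM in WT FAC and 0.982, 0.649 and 0.602 CPM in WT AC libraries, and was called in no comparison.

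The inducible HSP70 gene Hspa1a, which the name rule leaves out, had 5.61, 9.74 and 7.45 CPM in KO FAC, 3.90, 3.99 and 2.68 CPM in KO AC, 43.2, 51.2 and 44.3 CPM in WT FAC and 1.91, 1.73 and 2.02 CPM in WT AC libraries. The WT FAC libraries stood far above all others. The largest rise with FAC among the called chaperone genes in WT cells was that of Hspb11, 0.47 on the log2 scale.

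Small HSPs went both ways with genotype, with 2 of the 3 tested genes higher in KO cells and 1 lower under each treatment. Of all genes, 24.6% were higher and 24.9% lower under FAC, and 21.7% and 21.2% under AC. Hspb1 had 204, 239 and 241 CPM in KO FAC libraries, against 332, 332 and 355 CPM in WT FAC libraries. Under AC it had 229.8, 215 and 228 CPM in KO AC libraries, against 293, 349 and 349 CPM in WT AC libraries. It was lower in KO cells at −0.58 ± 0.081 (SE; edgeR adjusted p = 6.58e-05) under FAC and −0.56 ± 0.081 (SE; edgeR adjusted p = 0.000119) under AC, with no overlap of libraries. Hspb8, which acts with Bag3 to hand damaged proteins to autophagy, had 243, 218 and 209.6 CPM in KO FAC, 257, 296 and 293 CPM in KO AC, 188, 184 and 173 CPM in WT FAC and 174, 189.9 and 181 CPM in WT AC libraries. It was higher in KO cells at 0.30 ± 0.074 (SE; edgeR adjusted p = 0.00447) under FAC and 0.63 ± 0.074 (SE; edgeR adjusted p = 1.99e-05) under AC, and it fell with FAC in KO cells (−0.33 ± 0.074 SE, edgeR adjusted p = 0.00482), with −0.00023 ± 0.074 (SE) in WT cells. The difference of these FAC effects was −0.33 ± 0.10 (SE) and did not pass the test (edgeR adjusted p = 0.103). The exception between genotypes under FAC was Hspb8 (with log2(FPKM + 1) or log2(TPM + 1)), where the call did not hold. Hspb6, a small HSP abundant in muscle, had 18.5, 30.5 and 30.7 CPM in KO FAC libraries, against 9.77, 8.54 and 11.6 CPM in WT FAC libraries, with KO FAC 4 the lowest of its group but above every WT FAC library. Its fold change in KO over WT cells was 2.67-fold under FAC and 1.95-fold under AC, at 1.42 ± 0.19 (SE; edgeR adjusted p = 5.15e-05) and 0.96 ± 0.18 (SE; edgeR adjusted p = 0.00112). In the same libraries Cryab, a small HSP outside the name rule, averaged 22.9 ± 5.49 CPM in KO FAC, 4.37 ± 1.33 CPM in KO AC, 2.96 ± 0.774 CPM in WT FAC and 2.72 ± 0.376 CPM in WT AC (SD, n = 3).

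Windows around the starts of chaperone genes were searched for the letters of heat shock elements. Heat shock factor 1 binds repeats of the unit NGAAN in alternating orientation. The search took 2 units (GAANNTTC or TTCNNGAA) or 3 units (GAANNTTCNNGAA or TTCNNGAANNTTC), on both strands, in RefSeq windows of 250 bases before to 50 bases after each gene's start in GRCm38.p6. Such windows were found for 66 of the 82 chaperone genes. Hspa8, Hsp90aa1 and Hsp90ab1 were among those without a window and were not searched. The 3-unit form was present in 4 of the 66 (6.06%), Dnajb6, Hspd1, Hspe1 and Hsph1, beside 0.662% of 27025 genes with a window. Hspd1 and Hspe1 share 1 stretch of matches in overlapping windows, and each is counted among the 4. The 2-unit form, which each 3-unit match also holds, was present in 17 of 66 (25.8%), beside 17% of all genes. A match is a description of these letters and not a bound site. Windows of 3 genes with such matches are printed 5′ to 3′ on the gene's strand, with the matched letters in capitals: Hspb1 (chr5:135887669-135887968, plus strand) for 2 separate 2-unit matches, Dnajb6 (chr5:29735648-29735947, plus strand) for a 3-unit match that starts 46 bases before the gene's start, and Hsph1 (chr5:149636266-149636565, minus strand) for a 3-unit match that starts 15 bases after it.
Hspb1: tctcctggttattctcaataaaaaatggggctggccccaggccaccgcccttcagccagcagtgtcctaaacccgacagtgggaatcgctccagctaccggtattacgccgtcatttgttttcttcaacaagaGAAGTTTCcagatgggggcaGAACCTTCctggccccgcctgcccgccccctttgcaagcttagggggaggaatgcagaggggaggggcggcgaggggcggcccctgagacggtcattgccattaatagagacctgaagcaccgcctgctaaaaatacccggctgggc
Dnajb6: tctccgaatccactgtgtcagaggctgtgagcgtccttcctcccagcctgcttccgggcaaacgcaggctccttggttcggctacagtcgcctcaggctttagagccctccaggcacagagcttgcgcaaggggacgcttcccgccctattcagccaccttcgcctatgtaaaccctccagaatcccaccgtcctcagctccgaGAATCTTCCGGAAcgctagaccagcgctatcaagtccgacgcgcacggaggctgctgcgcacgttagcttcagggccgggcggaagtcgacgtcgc
Hsph1: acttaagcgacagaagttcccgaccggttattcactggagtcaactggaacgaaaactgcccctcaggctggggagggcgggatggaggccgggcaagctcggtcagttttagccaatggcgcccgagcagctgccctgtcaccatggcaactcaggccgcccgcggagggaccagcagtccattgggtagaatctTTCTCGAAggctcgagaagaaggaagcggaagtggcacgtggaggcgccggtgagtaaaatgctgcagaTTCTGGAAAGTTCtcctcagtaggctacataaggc

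The 4 genes with a 3-unit match did not share 1 pattern. Hspd1 and Hspe1 were lower in KO cells under both treatments and Hsph1 under FAC, while Dnajb6 had −0.069 ± 0.055 (SE) and 0.12 ± 0.055 (SE) between genotypes under FAC and AC, neither called, and rose with FAC in WT cells.

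Genes listed as co-factors of HSP70 were called in both directions. The only one lower in KO cells under FAC was Hspbap1, which is named for binding a small HSP. Of 8 tested, 1 was higher and 1 lower in KO cells under FAC, and 2 and 2 under AC, beside 24.6% higher and 24.9% lower of all genes under FAC and 21.7% and 21.2% under AC. Bag3, the partner of Hspb8, had 74.5, 81.0 and 82.1 CPM in KO FAC libraries, against 65.3, 59.3 and 63.7 CPM in WT FAC libraries. Under AC it had 89.9, 86.4 and 83.4 CPM in KO AC libraries, against 67.8, 77.9 and 72.2 CPM in WT AC libraries. It was higher in KO cells at 0.34 ± 0.072 (SE; edgeR adjusted p = 0.00167) under FAC and 0.25 ± 0.071 (SE; edgeR adjusted p = 0.0118) under AC and overlapped between genotypes under neither treatment. Bag5, which can release HSP70 substrates as a nucleotide exchange factor, had 20.2, 18.6 and 21.5 CPM in KO FAC, 20.0, 25.6 and 24.0 CPM in KO AC, 18.9, 18.0 and 18.5 CPM in WT FAC and 14.9, 14.4 and 14.9 CPM in WT AC libraries. The WT AC libraries were the lowest, and Bag5 was higher in KO cells under AC at 0.65 ± 0.10 (SE; edgeR adjusted p = 0.000184). It rose with FAC in WT cells (0.32 ± 0.10 SE, edgeR adjusted p = 0.0397) with −0.20 ± 0.10 (SE) in KO cells, and the difference of these effects, −0.53 ± 0.14 (SE), just missed the threshold (edgeR adjusted p = 0.0576). Hspbp1, another nucleotide exchange factor, was lower in KO cells under AC (−0.30), and Hspbap1, named for its binding to Hspb1, was lower under FAC (−0.41) and under AC (−0.36). Bag2, an inhibitor of the ubiquitin ligase CHIP, and Bag6, which guides tail-anchored membrane proteins, fell with FAC in KO cells, at −0.41 ± 0.14 (SE; edgeR adjusted p = 0.0369) and −0.24 ± 0.064 (SE; edgeR adjusted p = 0.0114). The call between genotypes under FAC ended for Bag3 (with log2(TPM + 1)). Between genotypes under AC, the calls did not hold for Bag3 (with log2(FPKM + 1) or log2(TPM + 1), and also without WT 1), Hspbap1 (without any one of KO 1 and 3 and WT 2) and Hspbp1 (without any one of KO 2 and 3). Alternatives ended the calls for FAC in KO cells of Bag2 (with centred TPM or only the compared groups in the fit, and also without any one of KO 2, 3, 5 and 6) and Bag6 (with only the compared groups in the fit). The exception for FAC in WT cells was Bag5 (with log2(FPKM + 1), log2(TPM + 1), centred TPM or no filter, and also without any one of WT 1, 2, 3, 4, 5 and 6), where the call did not hold.

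Of the 19 tested J-domain genes of the cytosol or nucleus, 3 were higher and 7 lower in KO cells under FAC, and 4 were higher and 5 lower under AC, beside 24.6% higher and 24.9% lower of all genes under FAC and 21.7% and 21.2% under AC. Dnaja1, a main partner of HSP70 in the cytosol, had the lowest fold change of all 71 genes under FAC. Under FAC it had 155, 156 and 165 CPM in KO FAC libraries, against 305, 295 and 315 CPM in WT FAC libraries, a level 0.521 times that of WT cells. Under AC it had 210.0, 178 and 173 CPM in KO AC libraries, against 289, 247 and 240.5 CPM in WT AC libraries. Under each treatment no KO library reached the lowest WT library, at −0.94 ± 0.085 (SE; edgeR adjusted p = 1.15e-06) under FAC and −0.47 ± 0.084 (SE; edgeR adjusted p = 0.000631) under AC. FAC gave −0.23 ± 0.084 (SE) in KO and 0.24 ± 0.084 (SE) in WT cells, opposite in sign and each just short of the threshold (edgeR adjusted p = 0.0514 and 0.068), with no overlap of libraries in either genotype. The difference of the FAC effects, KO minus WT, was −0.47 ± 0.12 (SE; edgeR adjusted p = 0.049). Dnaja2, its close relative, was lower in KO cells under FAC (−0.27) and had −0.022 under AC, which was not called. Dnajc7, which binds both HSP70 and HSP90, was lower at −0.53 under FAC and −0.29 under AC. Dnajc8, found with splicing factors, was lower at −0.46 and −0.49, and Dnajb5, at 3.78 to 7.84 CPM over all libraries, at −0.41 and −0.87. Dnajc13, an endosomal J-domain protein, was lower at −0.41 under FAC and at −0.31 under AC, where KO AC 3 lay within the WT AC range, and Dnajc2, a ribosome-bound J-domain protein, under FAC at −0.25. The calls between genotypes under FAC ended for Dnajb5 (with the replicate block, and also without any one of KO 6 and WT 5 and 6) and Dnajc2 (with the replicate block, and also without any one of KO 6 and WT 5 and 6). Between genotypes under AC, the call did not hold for Dnajc13 (with only the compared groups in the fit or the replicate block, and also without any one of KO 1 and 2 and WT 1 and 3).

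Other J-domain genes were higher in KO cells. Dnajb2, which carries ubiquitin-binding motifs and sorts clients to the proteasome, had 78.5, 64.5 and 69.2 CPM in KO FAC libraries, against 51.4, 50.5 and 53.3 CPM in WT FAC libraries. Under AC the gene had 72.4, 82.5 and 77.1 CPM in KO AC libraries, against 49.7, 46.7 and 45.7 CPM in WT AC libraries. All KO libraries lay above all WT libraries, at 0.45 ± 0.08 (SE; edgeR adjusted p = 0.000439) under FAC and 0.71 ± 0.08 (SE; edgeR adjusted p = 1.43e-05) under AC. Dnaja4 averaged 19.2 ± 2.50 CPM in KO FAC, against 14.6 ± 0.238 CPM in WT FAC, and 20.1 ± 1.26 CPM in KO AC, against 11.9 ± 1.12 CPM in WT AC (SD, n = 3), at 0.39 and 0.75 on the log2 scale. Under AC Dnajc27, a small GTPase with a J-domain, was higher at 0.65 and Dnajb4 at 0.28. Dnajc12 was called higher under FAC (0.86), from 3.17, 6.15 and 6.05 CPM in KO FAC libraries, against 2.48, 2.46 and 3.50 CPM in WT FAC libraries, with KO FAC 4 inside the WT FAC range. Alternatives ended the calls between genotypes under FAC of Dnaja4 (with log2(FPKM + 1) or log2(TPM + 1)) and Dnajc12 (with log2(FPKM + 1) or log2(TPM + 1), and also without any one of KO 5 and 6 and WT 4 and 5). Not every call held between genotypes under AC: exceptions were Dnajc27 (without KO 2) and Dnajb4 (with log2(FPKM + 1) or log2(TPM + 1), and also without any one of KO 2 and 3 and WT 2 and 3).

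All 8 subunits of TRiC/CCT were tested. Under FAC 6 of 8 were lower in KO cells (background 24.9%) and under AC 7 of 8 (background 21.2%), and none was higher. Each subunit occupies a fixed place in the ring, which is stacked on a like ring with 1 copy of each. Tcp1, the alpha subunit, had 403, 379 and 372 CPM in KO FAC libraries, against 511, 502 and 472 CPM in WT FAC libraries. Under AC the gene had 365, 380.0 and 374 CPM in KO AC libraries, against 467, 482 and 466 CPM in WT AC libraries. The log2 fold changes were −0.36 ± 0.054 (SE; edgeR adjusted p = 0.000108) under FAC and −0.34 ± 0.054 (SE; edgeR adjusted p = 0.000261) under AC. The KO and WT libraries did not overlap, as was also so for Cct3, Cct5, Cct6a, Cct7 and Cct8 under both treatments. The share of all genes without such overlap was not counted. The declines of the called subunits ran from −0.18 (Cct7) to −0.36 (Tcp1) under FAC and from −0.20 (Cct8) to −0.38 (Cct5) under AC. Cct2 was lower under AC (−0.26 ± 0.062 SE, edgeR adjusted p = 0.00489) and had −0.15 ± 0.062 (SE; edgeR adjusted p = 0.0572) under FAC. Cct4, the delta subunit, had 363, 377 and 364 CPM in KO FAC libraries, against 361, 363 and 342 CPM in WT FAC libraries. Under AC the gene had 360.1, 339 and 333 CPM in KO AC libraries, against 318, 341 and 338 CPM in WT AC libraries. Its log2 fold changes of 0.052 ± 0.055 (SE) and 0.049 ± 0.055 (SE) were not called (edgeR adjusted p = 0.455 and 0.496), and whether it differs from the other subunits was not tested. On log2(TPM + 1) Cct4 had −0.15 under FAC, called, and −0.084 under AC, not called, where the median of all genes was itself −0.17 and −0.11. For FAC, edgeR called 0 of 8 subunits in KO and in WT cells, beside 29.6% and 17.2% of all genes. An unadjusted p under 0.05 in edgeR was reached by 1 in KO and 0 in WT cells. In KO cells DESeq2 called 1 higher, limma on log2(TPM + 1) 3 lower and on centred TPM 2 higher, and in WT cells none of these called any. The call between genotypes under FAC ended for Cct7 (with only the compared groups in the fit, and also without any one of KO 5 and 6 and WT 4 and 5). Between genotypes under AC, the call did not hold for Cct7 (without KO 1).

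**Figure D3:**
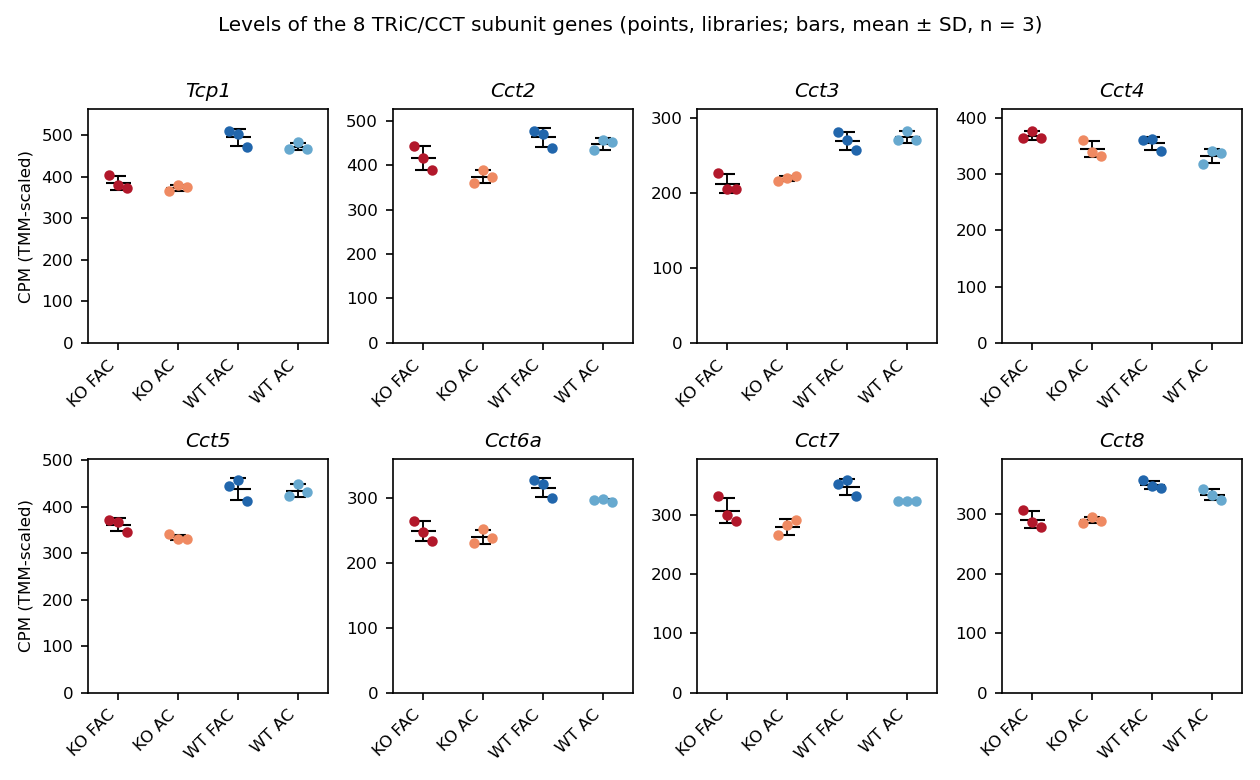
Levels of the 8 TRiC/CCT subunit genes in CPM (vertical axes start at 0) in the 4 groups. Points are libraries and bars the mean ± SD (n = 3). For 6 of the subunits (Tcp1, Cct3, Cct5, Cct6a, Cct7 and Cct8) every KO library lies below every WT library of the same treatment, and for Cct4 the groups lie at similar heights. How many of all genes are so separated was not counted.

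The 10 mitochondrial genes held 3 lower in KO cells under each treatment and 1 higher under FAC, beside 24.6% higher and 24.9% lower of all genes under FAC and 21.7% and 21.2% under AC. Hspd1 and Hspe1 encode HSP60 and its lid HSP10, the folding chamber of the matrix, and lie head to head on chromosome 1. Hspd1 had 388, 340.5 and 346 CPM in KO FAC libraries, against 528, 514 and 491 CPM in WT FAC libraries. Its AC values were 357, 409.6 and 414 CPM in KO AC libraries, against 558, 530.1 and 512 CPM in WT AC libraries. The log2 fold changes were −0.51 ± 0.072 (SE; edgeR adjusted p = 6.78e-05) and −0.44 ± 0.072 (SE; edgeR adjusted p = 0.000327). Hspe1 had 146, 146 and 125 CPM in KO FAC libraries, against 174, 162 and 163 CPM in WT FAC libraries. Its AC values were 117, 118 and 116 CPM in KO AC libraries, against 143, 156 and 148 CPM in WT AC libraries. The log2 fold changes were −0.26 ± 0.069 (SE; edgeR adjusted p = 0.0066) and −0.35 ± 0.069 (SE; edgeR adjusted p = 0.00129). In both genes every KO library lay below every WT library of the same treatment. Dnajc30, a mitochondrial J-domain protein, was lower at −0.43 under FAC and −0.58 under AC, and Dnajc19, part of the import motor, was higher under FAC at 0.38. Alternatives ended the calls between genotypes under FAC of Dnajc30 (with only the compared groups in the fit, and also without any one of KO 4 and WT 4 and 6) and Dnajc19 (with log2(FPKM + 1) or log2(TPM + 1), and also without any one of KO 6 and WT 4). The window of Hspe1 (chr1:55087898-55088197, plus strand) overlaps 1 of the windows of Hspd1 (chr1:55087883-55088182, minus strand), and both hold 2 overlapping 3-unit matches, printed for Hspe1 in capitals. The first starts 89 bases before the start of Hspe1.
Hspe1: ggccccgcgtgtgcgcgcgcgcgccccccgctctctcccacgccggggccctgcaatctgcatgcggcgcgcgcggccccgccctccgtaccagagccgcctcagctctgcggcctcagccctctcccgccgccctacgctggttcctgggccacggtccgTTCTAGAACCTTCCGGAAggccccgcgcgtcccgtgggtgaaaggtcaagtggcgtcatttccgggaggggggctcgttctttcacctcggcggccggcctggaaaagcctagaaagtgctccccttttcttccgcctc

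With FAC, 4 of the 10 mitochondrial genes rose in KO cells, beside 15% of all genes called higher, and none fell; on log2(FPKM + 1) 1 rose and 1 fell, on log2(TPM + 1) none rose and 2 fell, and with only the KO groups in the fit 1 rose. Hspa9, the motor of protein import and a chaperone in iron-sulfur cluster assembly, had 1191, 1116 and 1129.6 CPM in KO FAC libraries, against 852, 969 and 979 CPM in KO AC libraries, at 0.29 ± 0.065 (SE; edgeR adjusted p = 0.00474). In WT cells it had 1105, 1147 and 1006 CPM in WT FAC libraries, against 974, 966 and 972 CPM in WT AC libraries, at 0.16 ± 0.065 (SE; edgeR adjusted p = 0.104). Hspe1 rose in KO cells at 0.25, Dnajc19 at 0.36 and Dnajc15, a J-domain protein of the inner membrane, at 0.27, with 0.16, 0.26 and 0.18 in WT cells, not called. Not every call held for FAC in KO cells: exceptions were Hspa9 (with log2(TPM + 1)), Hspe1 (with log2(FPKM + 1), log2(TPM + 1) or only the compared groups in the fit, and also without any one of KO 3 and 5), Dnajc19 (with log2(FPKM + 1), log2(TPM + 1) or only the compared groups in the fit, and also without any one of KO 2, 3, 5 and 6) and Dnajc15 (with log2(FPKM + 1), log2(TPM + 1), no filter or only the compared groups in the fit, and also without any one of KO 2, 3, 5 and 6). The differences between genotypes did not pass the test for any of the 10 genes.

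The 13 genes of the endoplasmic reticulum were split, with 5 higher and 3 lower in KO cells under FAC and 5 and 5 under AC, beside 24.6% higher and 24.9% lower of all genes under FAC and 21.7% and 21.2% under AC. Hsp90b1, which folds integrins and Toll-like receptors among its few known clients, had 1089, 1098 and 1191 CPM in KO FAC libraries, against 452, 449.7 and 467 CPM in WT FAC libraries. Its AC values were 778, 729 and 718 CPM in KO AC libraries, against 475, 391 and 411 CPM in WT AC libraries. The level in KO over WT cells was 2.47-fold under FAC and 1.74-fold under AC, at 1.30 ± 0.072 (SE; edgeR adjusted p = 7.25e-09) and 0.80 ± 0.071 (SE; edgeR adjusted p = 1.42e-06), and these calls were kept in every alternative, leaving out of single libraries included. Hsp90b1 lies on chromosome 10 at 86690841 to 86705444 in GRCm38.p6, 2.75 Mb from Nr1h4 (89454234 to 89533645). The next nearest of the 5 chaperone genes on that chromosome, Dnajc12, lies 26.0 Mb away. The part of this position in the genotype difference was not tested. Dnajb11, a J-domain co-chaperone of the lumen, had 67.4, 77.3 and 77.4 CPM in KO FAC libraries, against 57.1, 56.1 and 54.8 CPM in WT FAC libraries. It was higher in KO cells at 0.40 ± 0.074 (SE; edgeR adjusted p = 0.000569). Under AC it had 0.21 ± 0.074 (SE; edgeR adjusted p = 0.0346). Dnajc3, which restrains the kinases PERK and PKR, was higher at 0.43 ± 0.12 (SE; edgeR adjusted p = 0.0104) and 0.41 ± 0.12 (SE; edgeR adjusted p = 0.0161), with 258, 186 and 198 CPM in KO AC libraries, of which KO AC 1 was the highest. Dnajb12, whose J-domain faces the cytosol from the membrane of the endoplasmic reticulum, was higher at 0.36 and 0.23, and Dnajc22, a J-domain protein with several membrane spans, at 0.26 and 0.42. The calls between genotypes under FAC ended for Dnajc3 (with log2(FPKM + 1) or log2(TPM + 1)), Dnajb12 (with log2(TPM + 1)) and Dnajc22 (with log2(FPKM + 1), log2(TPM + 1) or centred TPM, and also without any one of KO 5 and 6 and WT 4 and 5). Between genotypes under AC, the calls did not hold for Dnajb11 (with log2(FPKM + 1), log2(TPM + 1), centred TPM, only the compared groups in the fit or the replicate block, and also without any one of KO 1 and 2 and WT 1, 2 and 3), Dnajc3 (with log2(FPKM + 1) or log2(TPM + 1), and also without any one of KO 1 and WT 3) and Dnajb12 (with log2(FPKM + 1), log2(TPM + 1) or centred TPM, and also without any one of KO 3 and WT 1 and 2).

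Lower in KO cells were Dnajc10, Dnajc14 and Hspa13 under both treatments, and Dnajb14 and Dnajc1 (−0.33 and −0.33) under AC. Dnajc10, a disulfide reductase that prepares misfolded proteins for disposal, had 126, 129.8 and 121 CPM in KO FAC libraries, against 195, 205 and 204 CPM in WT FAC libraries. Its AC values were 144, 140.1 and 164 CPM in KO AC libraries, against 186, 187 and 179 CPM in WT AC libraries. The log2 fold changes were −0.68 ± 0.065 (SE; edgeR adjusted p = 2.2e-06) and −0.30 ± 0.065 (SE; edgeR adjusted p = 0.00224). No KO library reached a WT library of the same treatment. Dnajc14 was lower at −0.44 and −0.22 and Hspa13, an HSP70-like protein of microsomes, at −0.39 and −0.27. Alternatives ended the calls between genotypes under AC of Dnajc14 (with only the compared groups in the fit, and also without any one of KO 2 and 3 and WT 1), Hspa13 (without any one of KO 2 and WT 1) and Dnajb14 (without any one of KO 2 and WT 1). Genes of the lumen thus stood on both sides, Hsp90b1, Dnajb11 and Dnajc3 above and Dnajc10 below.

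Among the 66 windows, the endoplasmic reticulum stress element (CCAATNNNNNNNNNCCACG, on either strand) was present in 2, those of Hsp90b1 and Dnajc3, beside 0.137% of all genes with a window. This element is known to be bound by ATF6 together with NF-Y. It is shown in capitals in the windows of Hsp90b1 (chr10:86705395-86705694, minus strand), which holds 2 matches, 212 and 107 bases before the start, and of Dnajc3 (chr14:118937682-118937981, plus strand), with 1 match at 105 bases before the start. The window of Dnajb11 holds none.
Hsp90b1: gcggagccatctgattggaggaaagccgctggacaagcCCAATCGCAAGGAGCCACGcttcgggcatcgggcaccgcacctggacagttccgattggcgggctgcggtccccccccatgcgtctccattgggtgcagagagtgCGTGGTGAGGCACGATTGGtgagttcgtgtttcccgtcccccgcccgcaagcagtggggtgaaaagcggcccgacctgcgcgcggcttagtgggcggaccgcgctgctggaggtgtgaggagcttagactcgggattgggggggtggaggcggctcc
Dnajc3: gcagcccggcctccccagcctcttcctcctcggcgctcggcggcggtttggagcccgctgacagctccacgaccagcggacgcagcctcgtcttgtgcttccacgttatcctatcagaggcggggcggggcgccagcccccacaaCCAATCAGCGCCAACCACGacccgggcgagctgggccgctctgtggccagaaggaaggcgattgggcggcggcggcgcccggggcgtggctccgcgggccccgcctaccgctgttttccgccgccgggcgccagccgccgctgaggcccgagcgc

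**Figure D4:**
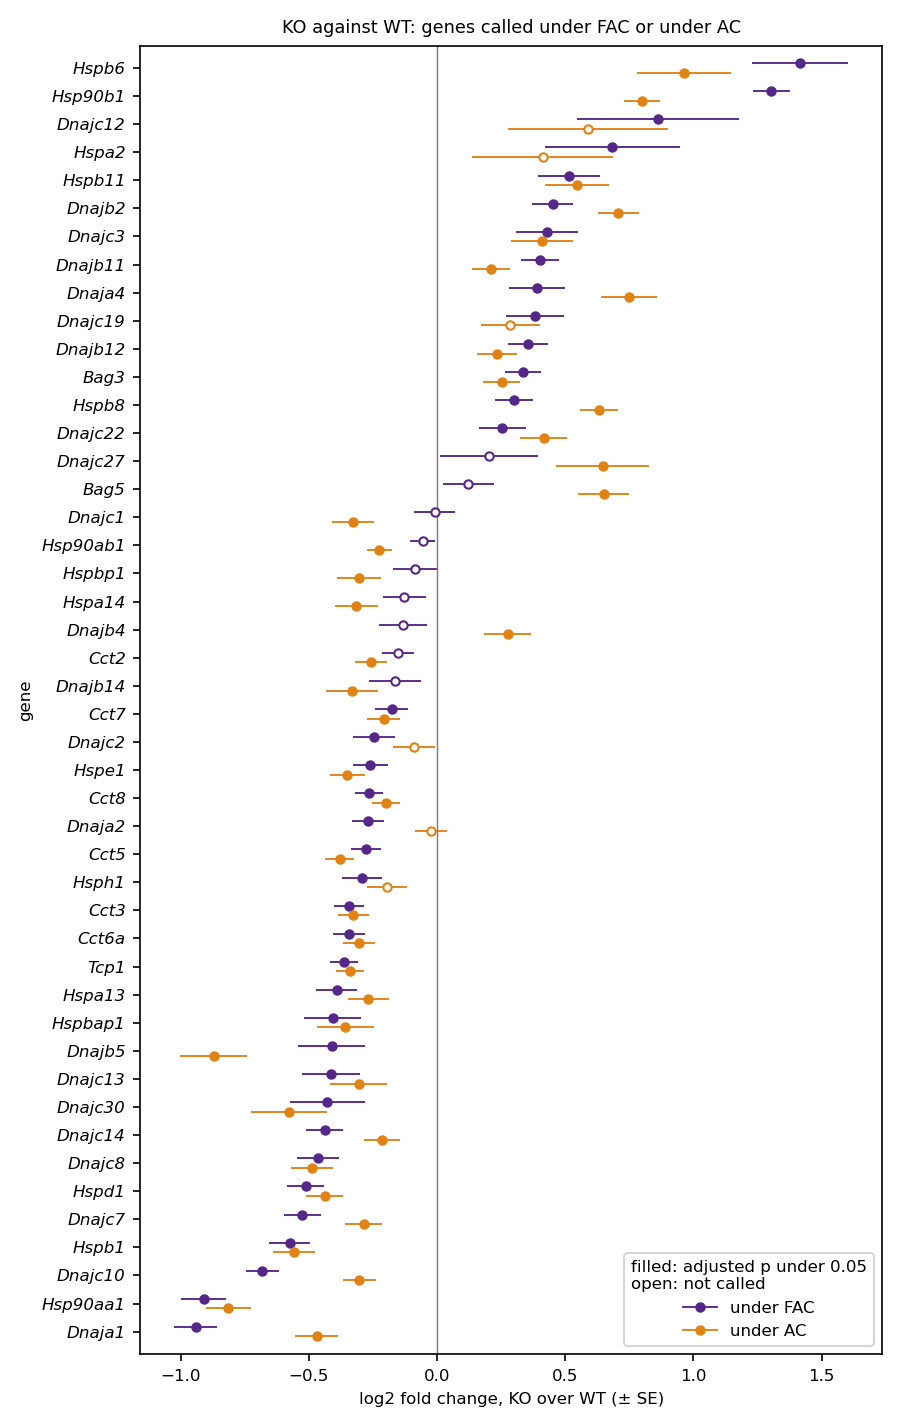
Log2 fold change of KO over WT cells (horizontal axis, ± SE) for each chaperone gene called under FAC or under AC (rows, ordered by the value under FAC). Filled points passed the test and open points did not. Hspb6 and Hsp90b1 lie at the top (1.42 and 1.30 under FAC) and Hsp90aa1 and Dnaja1 at the bottom (−0.91 and −0.94 under FAC), and no gene has filled points on both sides of 0.

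Fewer chaperone genes were called for FAC than for genotype. In KO cells 17 of 71 (23.9%) were called for FAC against AC, beside 29.6% of all genes, with 10 higher (14.1%, beside 15%) and 7 lower (9.86%, beside 14.6%). In WT cells 7 of 71 (9.86%) were called, beside 17.2% of all genes, with 6 higher (8.45%, beside 8.7%) and 1 lower (1.41%, beside 8.55%). Both counts lay at or below the background, none of these calls reached a 2-fold change, and the median size of a change was 0.13 in KO and 0.14 in WT cells on the log2 scale, beside 0.23 and 0.18 for all genes. The count in KO cells was 10 without KO 3 and 11 without KO 5. In WT cells it was 3 without any one of WT 2, 3 and 5, 4 without WT 4 and 2 without WT 6. With only the compared groups in the fit it was 8 in KO and 14 in WT cells. Calls over all genes moved too. In KO cells they went from 3633 to 2371 without KO 3 and 2584 without KO 5. In WT cells they went from 2117 to 1656, 1295 and 1250 without WT 2, 3 and 5, 1326 without WT 4 and 1378 without WT 6. With only the compared groups they were 2198 in KO and 3352 in WT cells. The split depended on the scaling: log2(TPM + 1) gave 1 higher and 25 lower in KO cells and 2 higher and 7 lower in WT cells, where the median of all genes lay at −0.15 and −0.10, log2(FPKM + 1) gave 6 and 13 in KO and 4 and 5 in WT cells, and centring each library on its median gene gave 15 and 5 in KO and 5 and 0 in WT cells.

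Dnajb1 and Hspb11 were called in both genotypes. Dnajb1, the J-domain partner of HSP70 that heat shock induces, had 90.9, 81.0 and 90.6 CPM in KO FAC libraries, against 69.6, 71.5 and 69.5 CPM in KO AC libraries. In WT cells it had 80.9, 85.8 and 76.5 CPM in WT FAC libraries, against 63.5, 64.3 and 61.0 CPM in WT AC libraries. All FAC libraries lay above all AC libraries of the same genotype, at 0.32 ± 0.067 (SE; edgeR adjusted p = 0.00348) in KO and 0.37 ± 0.067 (SE; edgeR adjusted p = 0.00237) in WT cells. Hspb11 rose at 0.44 ± 0.12 (SE; edgeR adjusted p = 0.0155) in KO and 0.47 ± 0.13 (SE; edgeR adjusted p = 0.0204) in WT cells. Between genotypes Hspb11 was higher in KO cells as well, at 0.51 under FAC and 0.55 under AC. Not every call held for FAC in KO cells: exceptions were Dnajb1 (with log2(TPM + 1)) and Hspb11 (with log2(TPM + 1), and also without any one of KO 3 and 6). The call for FAC in WT cells ended for Hspb11 (without any one of WT 1, 2, 4 and 6). The summed hepatocyte markers given above were also higher in FAC than in AC libraries in both genotypes. With FAC 7 of the 8 rose in KO cells, and in WT cells 5 rose and Cps1 fell. Among markers of other cell types, Cd68 rose in both genotypes, Krt19 and Spp1 rose and Acta2 fell in KO cells, and Cdh5 and Pecam1 rose and Adgre1 and Marco fell in WT cells. Their part in these and the other FAC results was not tested.

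In KO cells Hsp90b1, whose values are given above, rose with FAC at 0.60 ± 0.071 (SE; edgeR adjusted p = 6.62e-05), and Dnajb11 rose at 0.30 ± 0.074 (SE; edgeR adjusted p = 0.00806). Dnajb14, an anchor of HSP70 at the membrane of the endoplasmic reticulum, rose at 0.42 ± 0.10 (SE; edgeR adjusted p = 0.00816). Dnajc17, a spliceosome-associated J-domain protein at 2.09 to 5.10 CPM, rose at 0.62 ± 0.21 (SE; edgeR adjusted p = 0.042). Dnajb4, a J-domain protein of the cytosol, fell with FAC, with 35.2, 32.7 and 35.9 CPM in KO FAC libraries, against 47.4, 51.9 and 57.1 CPM in KO AC libraries, at −0.59 ± 0.093 (SE; edgeR adjusted p = 0.000551). In WT cells it had −0.18 ± 0.093 (SE; edgeR adjusted p = 0.198), and the difference was −0.41 ± 0.13 (SE) (edgeR adjusted p = 0.109). Dnajc10, Dnajc14 and Dnajc27 fell at −0.25, −0.31 and −0.61. For FAC in KO cells, the calls did not hold for Dnajb11 (with log2(TPM + 1) or only the compared groups in the fit), Dnajb14 (with log2(FPKM + 1) or log2(TPM + 1)), Dnajc17 (with log2(TPM + 1), no filter or only the compared groups in the fit, and also without any one of KO 1, 3, 5 and 6), Dnajc10 (with only the compared groups in the fit, and also without KO 3) and Dnajc27 (with centred TPM or only the compared groups in the fit, and also without any one of KO 2, 3, 5 and 6).

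In WT cells Dnajb6, which keeps polyglutamine proteins from aggregating, had 141, 137 and 139 CPM in WT FAC libraries, against 119, 119 and 110.1 CPM in WT AC libraries and rose at 0.26 ± 0.055 (SE; edgeR adjusted p = 0.0061). In KO cells it had 131, 135 and 132 CPM in KO FAC libraries, against 129, 126 and 125 CPM in KO AC libraries, at 0.064 ± 0.055 (SE; edgeR adjusted p = 0.408). Dnajc24, needed for the diphthamide modification of a translation elongation factor, rose at 0.41 ± 0.12 (SE; edgeR adjusted p = 0.0307) and Dnajc2 at 0.26 ± 0.082 (SE; edgeR adjusted p = 0.0427). Alternatives ended the calls for FAC in WT cells of Dnajb6 (with log2(TPM + 1)), Dnajc24 (with log2(TPM + 1), and also without any one of WT 1, 2, 3, 4, 5 and 6) and Dnajc2 (with log2(FPKM + 1) or log2(TPM + 1), and also without any one of WT 2, 3, 5 and 6). The differences between genotypes did not pass the test for Dnajb6 (−0.19 ± 0.078 SE), Dnajc24 or Dnajc2 (edgeR adjusted p = 0.191, 0.442 and 0.494).

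**Figure D5:**
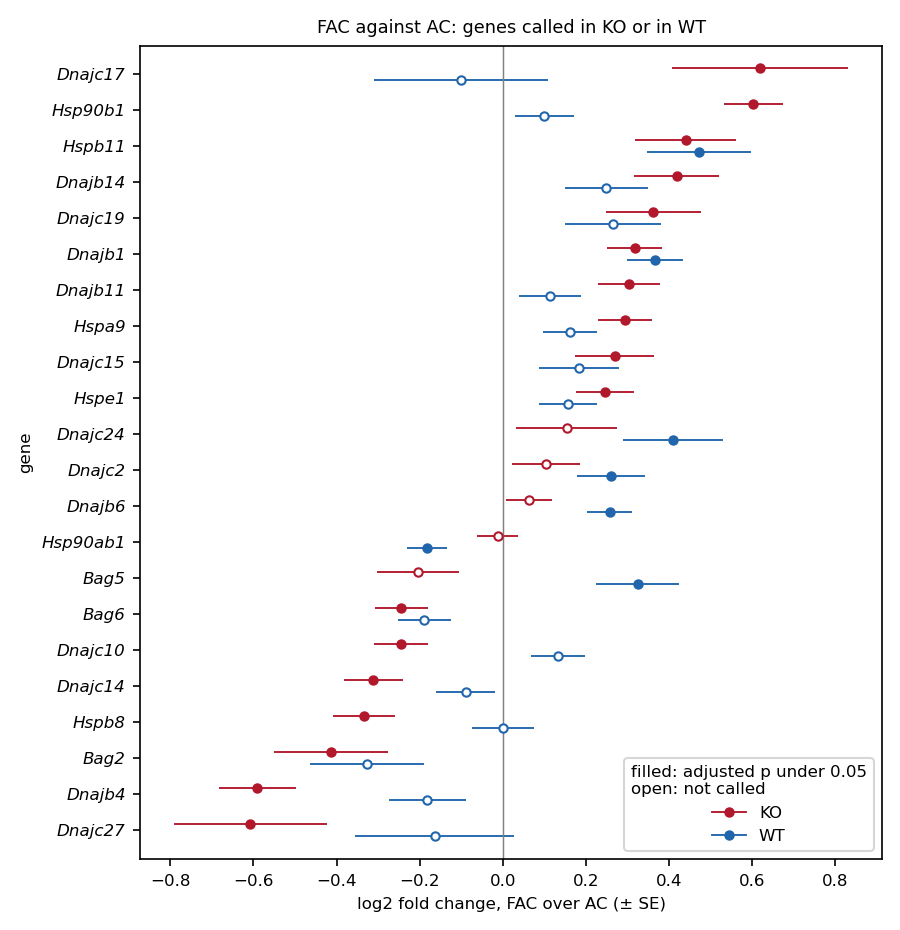
Log2 fold change of FAC over AC (horizontal axis, ± SE) in KO and in WT cells for each chaperone gene called in at least 1 genotype (rows, ordered by the value in KO cells). Filled points passed the test and open points did not. Dnajb1 and Hspb11 have filled points in both genotypes, Hsp90b1 (0.60 in KO, 0.10 in WT) has one in KO cells, and Dnajb4 lies among the most negative in KO cells (−0.59).

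The FAC effect itself differed between genotypes for 3 of 71 chaperone genes (4.23%), beside 3.15% of all genes: 1 had a higher effect in KO cells (1.41%, beside 1.87%) and 2 a lower one (2.82%, beside 1.28%). These shares were close to the background. Hsp90b1 had 0.60 ± 0.071 (SE; edgeR adjusted p = 6.62e-05) in KO and 0.10 ± 0.071 (SE; edgeR adjusted p = 0.367) in WT cells, a difference of 0.50 ± 0.10 (SE; edgeR adjusted p = 0.0199). Dnajc10 had −0.25 ± 0.065 (SE) in KO and 0.13 ± 0.065 (SE) in WT cells, a difference of −0.38 ± 0.092 (SE; edgeR adjusted p = 0.0431). Dnaja1 followed at −0.47 ± 0.12 (SE; edgeR adjusted p = 0.049). Of 20 alternatives Hsp90b1 lost its call in 6, Dnajc10 in 11 and Dnaja1 in 14, with the same sign in all, and edgeR called 0 chaperone genes without KO 3, WT 3, WT 4 or WT 5, while an unadjusted p under 0.05 was reached by 9 to 13 of the 71 genes in those fits and by 17 in the full one. The count of chaperone genes was 5 without KO 1, and 1 without KO 2, KO 5, KO 6, WT 2 or WT 6. Calls over all genes fell as well, from 387 in the full fit to 175 without KO 3 and 95, 138 and 145 without WT 3, 4 and 5. They were 587 without KO 1, 188, 167 and 279 without KO 2, 5 and 6, and 138 and 142 without WT 2 and 6. With limma, log2(TPM + 1) gave 0 higher and 3 lower, log2(FPKM + 1) 1 and 3 and centred TPM 1 and 0. Over all genes these called 494, 584 and 473. Not every call held for the difference: exceptions were Hsp90b1 (with log2(TPM + 1), and also without any one of KO 2 and 3 and WT 3, 4 and 5), Dnajc10 (with centred TPM or the replicate block, and also without any one of KO 3, 5 and 6 and WT 1, 2, 3, 4, 5 and 6) and Dnaja1 (with the stricter filter, centred TPM or median-of-ratios factors, and also without any one of KO 1, 2, 3, 4, 5 and 6 and WT 2, 3, 4, 5 and 6).

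Partners of the chaperones outside the name rule were taken from lists by function. Of 24 HSP90 co-chaperones, 2 were higher and 10 lower in KO cells under FAC, and 3 were higher and 12 lower under AC, with medians of −0.21 and −0.21 on the log2 scale. Of all genes, 24.6% were higher and 24.9% lower under FAC and 21.7% and 21.2% under AC, with medians of −0.011 and −0.0033, and the counts of the next lists stand beside the same shares. Lower were Ahsa1, which stimulates the ATPase of HSP90 (−0.51 under FAC and −0.55 under AC), Chordc1 (−0.93 and −0.51), the peptidyl-prolyl isomerase Ppid (−0.66 and −0.56) and Cdc37, which brings kinases to HSP90 (−0.48 and −0.28). Stip1, the adaptor between HSP70 and HSP90, was lower under FAC (−0.39) and had −0.21 under AC, not called. Of 15 prefoldin and chaperonin assistants, 5 were lower under FAC and 3 under AC, and 0 were higher; Uri1, a prefoldin-like protein, had −0.56 and −0.81. Among 11 partners of HSP70, 4 were higher and 3 lower under FAC and 2 higher and 1 lower under AC. The ubiquitin ligase Stub1 was higher under FAC (0.57).

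Of 6 tested heat shock factors and regulators, 2 were higher and 1 lower in KO cells under each treatment, beside 24.6% higher and 24.9% lower of all genes under FAC and 21.7% and 21.2% under AC. Hsf1 had 23.9, 20.8 and 18.7 CPM in KO FAC libraries, against 27.9, 24.5 and 25.8 CPM in WT FAC libraries, lower at −0.30 ± 0.11 (SE; edgeR adjusted p = 0.0286), and −0.011 ± 0.10 (SE) under AC. Hsf4, a factor best known from the lens, was higher at 1.10 under FAC and 0.83 under AC. With FAC in KO cells, Hikeshi, which carries HSP70 into the nucleus, rose at 0.49 ± 0.078 (SE; edgeR adjusted p = 0.000556), and its FAC effect was higher than that in WT cells by 0.45 ± 0.11 (SE; edgeR adjusted p = 0.0422). The call between genotypes under FAC ended for Hsf1 (with only the compared groups in the fit, and also without any one of KO 5 and 6 and WT 4 and 6). For the difference, the call did not hold for Hikeshi (with no filter or the replicate block, and also without any one of KO 2, 3, 4, 5 and 6 and WT 1, 2, 3, 4, 5 and 6). Of 14 other genes known to respond to heat shock or to hold unfolded proteins, 6 rose and 0 fell with FAC in KO cells (15% and 14.6% of all genes) and 4 rose and 2 fell in WT cells (8.7% and 8.55% of all genes); on log2(TPM + 1) 3 rose and 3 fell in KO cells. Hmox1, heme oxygenase, had 1.80 ± 0.18 (SE) in KO and 0.71 ± 0.17 (SE) in WT cells, and Zfand2a, a heat-inducible proteasome partner, 0.64 ± 0.11 (SE) and 0.90 ± 0.11 (SE). Cryab had 2.39 ± 0.23 (SE; edgeR adjusted p = 1.96e-05) in KO and 0.13 ± 0.28 (SE; edgeR adjusted p = 0.802) in WT cells, from 17.6, 22.4 and 28.6 CPM in KO FAC libraries, against 5.91, 3.65 and 3.55 CPM in KO AC libraries. KO FAC 4 was the lowest of the KO FAC libraries, and all of them lay above the KO AC libraries. Of the 14 genes, the FAC effect was called higher in KO than in WT cells for 2 and lower for 0 (1.87% and 1.28% of all genes). These were Cryab, by 2.26, and Hmox1, by 1.09 (edgeR adjusted p = 0.0075 and 0.0418). How these 2 calls fared in the alternatives is not given here. Alternatives ended the call for FAC in WT cells of Hmox1 (without any one of WT 1, 2 and 5).

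Across the 5 comparisons, 54 of the 71 tested chaperone genes were called at least once, 3 of them (Dnajc10, Hsp90b1 and Hspb11) in 4 comparisons and 0 in all 5. Single comparisons called 3.15% to 49.5% of all genes, and the share of all genes called at least once was not counted. The 54 are therefore not read as a trait of the chaperone genes. The 17 genes called in none were Hspa8, Hspa4, Hspa4l, Hspa1l, Bag1, Bag4, Cct4, Dnaja3, Dnajc4, Dnajc5, Dnajc9, Dnajc11, Dnajc16, Dnajc18, Dnajc21, Dnajc25 and Dnajc28. A gene that did not pass the test is not thereby shown to be equal between groups.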

How the data were processed

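RNA was measured in 12 libraries of primary hepatocytes, 3 in each of 4 groups defined by genotype and treatment from the labels. Reads were quantified with RSEM, and the builds mm10 and GRCm38.p6 were named, per the submitters' processing notes. Per the labels' protocols, library preparation followed the BGISEQ-500 standard. The sources used here give no RSEM version, aligner, annotation release, strand setting or filter. The deposited estimated counts are not normalized, and 7.89% of them were not whole. The authors also deposited FPKM, per kilobase and depth of library, and TPM, which sums to the same total in each library, so a few abundant genes that rise lower all others.

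Estimated counts were rounded, and genes were kept by edgeR's filterByExpr with a minimum count of 10 (12275 of 16728). A mean per group was fitted to all 12 libraries with TMM scaling by the robust quasi-likelihood test of edgeR 4.0.16 in R 4.3.3, and 5 contrasts were tested, each with Benjamini-Hochberg adjustment over all tested genes and a threshold of 0.05. The SE of a log2 fold change was its size divided by the square root of its F statistic. The common coefficient of variation between libraries was 10.8%. Depth of 16464494 to 18335700 reads limits genes of a few CPM most. Promoter windows came from RefSeq (GRCm38.p6).

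Alternatives were no filter, a filter of 1 FPKM in 3 libraries, median-of-ratios factors, DESeq2 1.42.0, limma 3.58.1 on log2(FPKM + 1) and log2(TPM + 1), only the compared groups, a replicate block and leaving out each library. Centring log2(TPM + 1) on each library's median gene was added after seeing the data.

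The members, their role lists and the further lists were chosen with earlier results of these data known. Genes were named by a rule: 17 core genes in every comparison, up to 12 called members with the largest rise and 12 with the largest fall, and up to 3 called genes per further list. Other genes named, among them Hspa1a, Nr1h4, Hspa1l, Cct4, Cdc37, Stip1 and members singled out to account for a list, were chosen after their values were seen.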

Additional observations from a re-analysis of the deposited data

Results flagged for a closer look

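In 3 chaperone genes the effect of FAC differed between genotypes by a test of the difference itself. For Hsp90b1, the HSP90 of the endoplasmic reticulum, the effect in KO minus that in WT cells was 0.50 ± 0.10 (SE; edgeR adjusted p = 0.0199), from 0.60 in KO and 0.10 in WT cells, and all 3 KO FAC libraries lay above all 3 KO AC libraries. For Dnajc10, the disulfide reductase, it was −0.38 ± 0.092 (SE; edgeR adjusted p = 0.0431), from −0.25 in KO and 0.13 in WT cells. For Dnaja1, the cytosolic HSP70 partner, it was −0.47 ± 0.12 (SE; edgeR adjusted p = 0.049), from −0.23 in KO and 0.24 in WT cells, with no overlap between FAC and AC libraries in either genotype. These 3 are 4.23% of the 71 tested chaperone genes, beside 3.15% of all genes tested. Neither FAC effect of Dnaja1 passed the test on its own (edgeR adjusted p = 0.0514 in KO and 0.068 in WT cells). Of 20 alternatives the call was lost in 6 for Hsp90b1, 11 for Dnajc10 and 14 for Dnaja1. For the difference, edgeR called 0 chaperone genes without KO 3, WT 3, WT 4 or WT 5, where 9 to 13 had an unadjusted p under 0.05. Over all genes those 4 fits called 175, 95, 138 and 145, against 387 in the full fit.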

How the results depend on the processing

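The number of chaperone genes called stayed within 1.5 times under every alternative for KO against WT, with 31 to 40 under FAC and 32 to 39 under AC when single libraries were left out. For FAC in KO cells (17 called) it was 26 on log2(TPM + 1), 8 with only the KO groups in the fit and 10 to 22 without single libraries. For FAC in WT cells (7 called) it was 14 with only the WT groups in the fit and 2 to 7 without single libraries. For the difference (3 called) it was 1 on centred TPM and 0 to 5 without single libraries. Calls over all genes moved too. For FAC in KO cells (3633 called) they were 4670 on log2(TPM + 1), 2198 with only the KO groups and 2371 to 4095 without single libraries. For FAC in WT cells (2117 called) they were 3352 with only the WT groups and 1250 to 1656 without single libraries. For the difference (387 called) they were 473 on centred TPM and 95 to 643 without single libraries. The cause was not tested. Signs turned, with a call on 1 side, for Hspa8 and Tcp1 with FAC in KO cells on log2(TPM + 1) (−0.18 and −0.15), and for Hspa8 between KO and WT under FAC on log2(FPKM + 1) (−0.13) and log2(TPM + 1) (−0.20), scales on which the median of all genes also lay below 0. Over all named genes and alternatives, 2523 of 2839 values stayed on their side of the threshold with no called value turning sign, 280 lost the call, 32 gained it and 4 turned sign.

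Libraries of KO and WT cells under 1 treatment share numbers in their labels, but deviations of same-numbered libraries correlated at only −0.14, −0.086, 0.0081, 0.10, −0.10 and 0.21 for numbers 1 to 6, so the numbers were not taken to pair them. With a replicate block 36 chaperone genes were called for KO against WT under FAC, 38 under AC and 2 for the difference. Over all genes it called 5688, 4670 and 84. Depth limits genes at a few CPM, such as Hspa2 and Dnajc17.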
